A study of Mus musculus with 96 samples.

Results

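The EGR transcription factors Egr1, Egr2 and Egr3 were followed in mouse primary bone marrow dendritic cells exposed to ligands of Toll-like receptors. The members were taken by gene symbol, as every probe set annotated to any of the 3 genes, out of 10035 named genes on the array. This gave 4 probe sets of 18858, namely 1 for Egr1, 2 for Egr2 and 1 for Egr3. For Egr2 the probe set with the higher mean is used below unless the second is named. All 4 probe sets passed the filter on dim probe sets. Egr1 and Egr2 rose with every ligand at 1 h, Egr2 later stood below the level of unstimulated cells with some ligands, and Egr3 stayed close to the lower limit of the values.

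The ligand groups are Lps, Pic, Pam, Cpg and Grd, each sampled at 0.5, 1 and 2 h, then at 4, 6 and 8 h, and last at 12, 16 and 24 h. The labels give these short names, and what is known of the study identifies Lps as lipopolysaccharide, Pic as the double-stranded RNA mimic poly(I:C), Pam as a lipopeptide like those of bacteria, Cpg as DNA rich in CpG and Grd as gardiquimod. Their receptors are TLR4 for Lps, TLR3 for Pic, TLR2 for Pam, TLR9 for Cpg and TLR7 for Grd. Arrays came in pairs, save for a single Cpg array at 16 h and another at 24 h, which makes 18 arrays for every ligand but Cpg, with 16. Control, cells left without ligand, had a single array at 0, 1, 2 and 4 h and at 6, 8, 12 and 24 h, or 8 in all. Doses, mouse strain, sex and age are not given in the sources used here, and no genetic change is named for any group.

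Values are linear intensities of one-colour Affymetrix arrays, made by the authors with RMA, and no value lies below a floor of 20, which between 33.1% and 34.6% of the probe sets of each array share. A value at the floor is an upper bound on the level, not a measurement. Differences below are log2 differences, ligand minus Control unless stated, on log2(value + 1) with standard errors from 1 limma fit over all 96 arrays. A difference is called where the Benjamini-Hochberg adjusted p over 14449 probe sets is below 0.05 and the log2 difference is at least 1 in size, which is a 2-fold change. Nothing in the labels says that paired arrays came from separate cultures, so the errors measure the spread between arrays, which may be technical. All 13 dendritic cell and myeloid markers measured were above the floor in Control, although Flt3 and Zbtb46 were low. The measured markers of T cells (3 of 6 listed), B cells (4 of 5) and NK cells (2 of 3) were at the floor on every Control array. So were those of erythroid cells (2 of 4) and of mast cells and basophils (4 of 4). Of the stromal and endothelial list only Cdh5 was measured (1 of 5), also at the floor. For all ligands but Cpg, every time has its own plate column and Control lies in other columns, so place on the plate cannot be told apart from time or treatment there.

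EGR proteins are zinc-finger transcription factors that bind GC-rich DNA. Their genes are immediate-early genes, transcribed within minutes of a signal without need of new protein, typically when the kinase ERK activates ternary complex factors that sit with serum response factor (SRF) on a DNA element called the CArG box. Toll-like receptors reach ERK in myeloid cells through the kinase encoded by Map3k8. Egr1 and Egr2 have known roles in the monocyte and macrophage lineage, and Egr2 and Egr3 restrain activation in T cells.

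The Egr2 promoter is shown because Egr2 first rose and later fell, and because its sequence carries the element through which immediate-early genes are known to be switched on. RefSeq annotation of build GRCm38.p6 gives 5 start sites for Egr2 on the plus strand of chromosome 10, and each window holds 250 bases before and 50 after the start. The following lines give the pair of windows that do not overlap each other and hold a CArG box, in capitals, 72 bases before the start site in each.
Egr2 upstream window, chr10:67537316-67537615: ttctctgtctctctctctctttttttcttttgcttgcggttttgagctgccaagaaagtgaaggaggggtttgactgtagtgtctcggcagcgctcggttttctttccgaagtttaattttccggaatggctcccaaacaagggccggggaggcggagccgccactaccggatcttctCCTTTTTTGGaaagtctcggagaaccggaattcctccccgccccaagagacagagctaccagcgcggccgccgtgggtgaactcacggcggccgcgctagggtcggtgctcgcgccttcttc
Egr2 downstream window, chr10:67537619-67537918: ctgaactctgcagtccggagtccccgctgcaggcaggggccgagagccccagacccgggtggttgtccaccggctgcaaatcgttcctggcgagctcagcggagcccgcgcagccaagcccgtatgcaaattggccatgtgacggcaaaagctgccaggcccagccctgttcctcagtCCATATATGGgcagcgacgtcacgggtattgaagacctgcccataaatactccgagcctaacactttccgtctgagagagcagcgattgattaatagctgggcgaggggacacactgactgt
The CArG box, searched on both strands as a pair of C, 6 bases that are each A or T, and a pair of G, was found in 4 of 5 Egr2 windows, some of which overlap, as CCTTTTTTGG in the upstream window and as CCATATATGG in the downstream one. The overlapping windows hold the same CCATATATGG site. The box was present in 1.63% of the 32851 promoter windows of the same length. Egr2 was chosen for display partly because it carries the box, so this share is given for scale and is not a test. The full cyclic AMP response element TGACGTCA and the EGR binding sites GCGTGGGCG and GCGGGGGCG were in 0 of 5 Egr2 windows on either strand, against 1.79%, 0.612% and 2.91% of all windows. A match is a description of the letters, and the arrays do not show which start site was used. No sequence is shown for Egr1 and Egr3.

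Egr1, the founding member of the family and a standard marker of ERK signalling, showed a sharp early pulse. At 1 h it measured 2159 and 2452.5 with Lps, 2338 and 2363 with Pam, 1841 and 1545 with Cpg, 327 and 359 with Grd, then 69.0 and 83.8 with Pic, against a lowest, median and highest value of 20, 21.75 and 41.2 over the 8 Control arrays. Every one of the 10 ligand arrays at 1 h lay above every Control array. The log2 differences were 6.48 with Lps, 6.51 with Pam, 6.03 with Cpg, 3.73 with Grd but 1.58 with Pic (SE 0.22 each), with adjusted p between 4.39e-31 for Pam and 8.4e-07 for Pic. In terms of fold these are 89.1 for Lps, 91.0 for Pam, 65.3 for Cpg, 13.3 for Grd and 2.98 for Pic. Egr1 was at the floor on 3 of the 8 Control arrays, where the floor stands in for its level. In RNA from a whole culture, more RNA per cell and more cells with the transcript cannot be told apart.

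**Figure D1:**
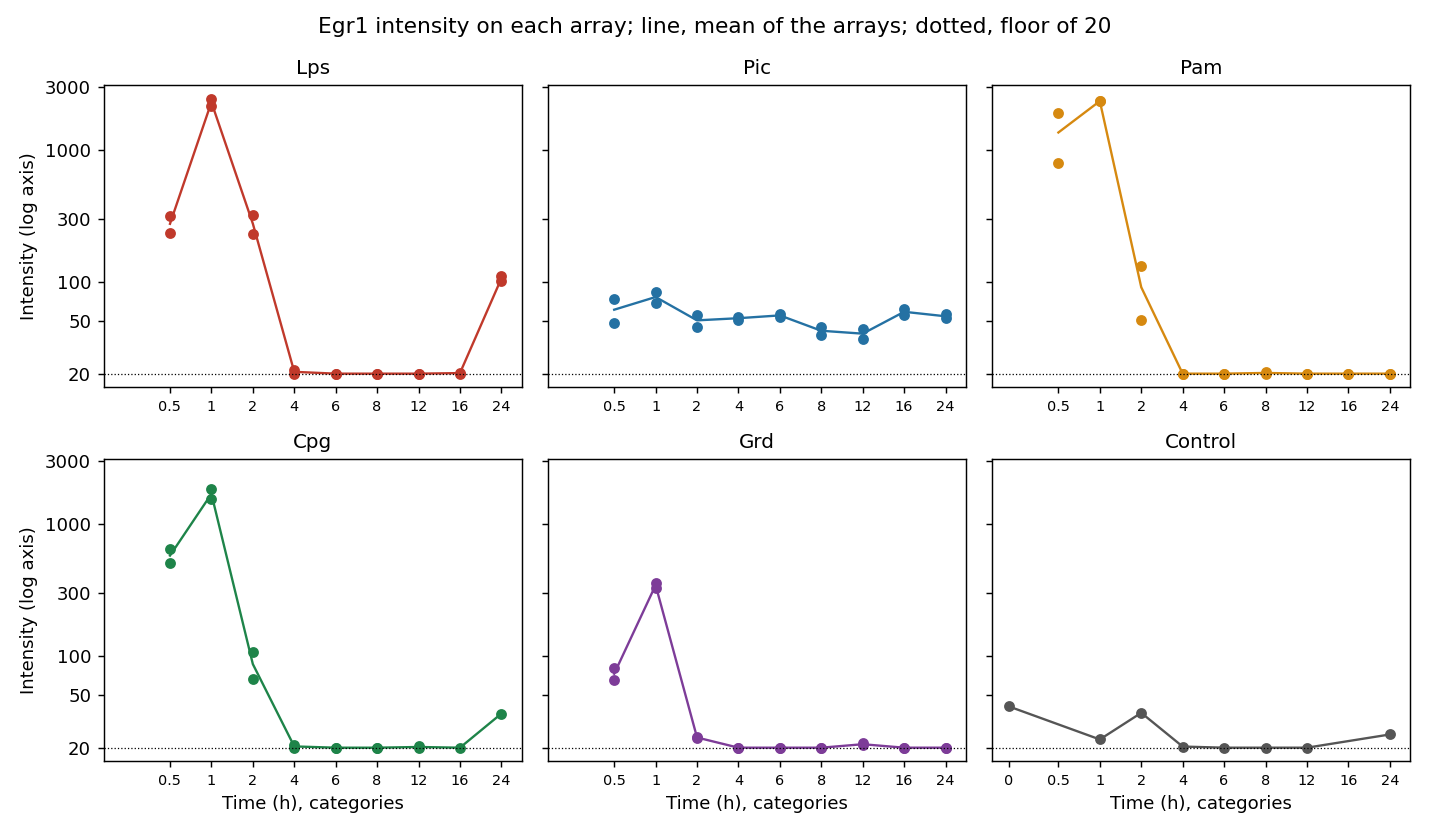
Egr1 intensity (log axis) against time in hours, spaced as categories, with 1 panel for each ligand and 1 for Control; points are arrays, lines join the means of the arrays and the dotted line is the floor of 20. The means peak at 1 h with all 5 ligands, at 2306 with Lps and 76.4 with Pic, and only Pic stays off the floor throughout.

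The pulse was already under way at 0.5 h. Egr1 then measured 317 and 232 with Lps, 74.3 and 48.1 with Pic, 1921 and 795 with Pam, 503 and 649 with Cpg and 65.3 and 80.5 with Grd. All 10 arrays again lay above the highest Control array, and the arrays of Pam differed from each other by more than those of any other ligand at that time. The log2 differences were 3.40, 1.23, 5.58, 4.47 and 1.51 in the same order of ligands, all called. The call with Pic was lost without its first array at 0.5 h (0.93, adjusted p 0.00989), with a Control time trend (0.93, adjusted p 0.00156) and with log2(value + 16) (0.89, adjusted p 6.71e-05).

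By 2 h most of the Egr1 pulse was over. It measured 324 and 228 with Lps, 45.5 and 56.1 with Pic, 130.5 and 50.9 with Pam, 66.5 and 106 with Cpg, and 24.2 and 23.6 with Grd. The 2 h level was lower than that of 1 h, with a log2 difference of -3.08 with Lps, -4.83 with Pam, -4.31 with Cpg and -3.79 with Grd (SE 0.27 each), with adjusted p between 2.93e-20 for Pam and 2.25e-13 for Lps. With Pic the 2 h minus 1 h difference was -0.58 (95% confidence interval -1.13 to -0.03, adjusted p 0.5) and was not called. Egr1 was still above Control at 2 h with Lps (3.40), Pam (1.68) and Cpg (1.72), while the difference was 0.99 with Pic, just short of 2-fold, and -0.05 with Grd. The value with Pic passed with centred arrays (1.02), array weights (1.001) or a replicate block (1.025), and without the first Pic array of 2 h or the Control array of 0 or 2 h (1.07 to 1.14), and it was 0.45 (adjusted p 0.784) against the Control array of 2 h. The arrays of Pam at 2 h held the largest gap between paired arrays for Egr1, 2.53-fold.

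How unusual such calls were can be read from all probe sets. At 0.5 h the share of all 14449 probe sets called higher was 0.54% with Lps, 0.568% with Pic, 0.671% with Pam, 0.498% with Cpg and 0.374% with Grd, and 2 of the 3 EGR genes, Egr1 and Egr2, were called with each ligand except Pic, where Egr1 alone was. At 1 h these 2 genes were called with all 5 ligands, beside 1.34% of all probe sets with Lps, 0.54% with Pic, 1.88% with Pam, 2.17% with Cpg and 0.927% with Grd. At 2 h 1 of the 3 genes was called with each ligand, Egr1 with Lps, Pam and Cpg and Egr2 with Pic and Grd, beside 4.08% of all probe sets with Lps, 0.955% with Pic, 3.24% with Pam, 3.63% with Cpg and 1.8% with Grd. Fewer probe sets fell between 1 h and 2 h, at 0.782% with Lps, 0.0346% with Pic, 0.976% with Pam, 1.08% with Cpg and 0.152% with Grd, and Egr1 was among them with every ligand except Pic. The comparisons with Control share the same 8 Control arrays, so they are not independent of each other.

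From 4 h on Egr1 sat within 2 units of the floor with Lps up to 16 h, with Pam and Grd up to 24 h and with Cpg up to 16 h. Over 4 to 8 h the lowest, median and highest values were 20, 20 and 21.3 with Lps, 20, 20 and 20.5 with Pam, 20, 20 and 20.9 with Cpg, and 20 on all 6 arrays with Grd. The 3 Control arrays of the same times read 20.4, 20 and 20, so no fall below the unstimulated level could be measured. Log2 differences from all Control arrays lay between -0.29 and -0.30 for these 4 ligands, with adjusted p between 0.0726 and 0.0805. With Grd the 1 h level was at least 17.1-fold above that at 4 to 8 h.

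Pic differed in that Egr1 stayed up. Between 4 and 8 h the lowest, median and highest values were 39.2, 52.75 and 56.8 with Pic, and at 12 to 24 h they were 36.5, 54.05 and 62.5, against 20, 21.75 and 41.2 in Control. In each window 5 of 6 Pic arrays lay above the highest Control array. The difference from all Control arrays was 0.97 ± 0.15 (SE, adjusted p 7.65e-08) at 4 to 8 h and 0.99 ± 0.15 (adjusted p 4.84e-08) at 12 to 24 h, in both windows just short of 2-fold and so not called. Set against the Control arrays of the same times, the differences were 1.27 (adjusted p 2.11e-08) and 1.03 (adjusted p 5.86e-05), and both passed. A replicate block also took both past 2-fold, at 1.004 and 1.024.

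Egr1 came back at 24 h with Lps. It measured 101.7 and 109.7 at 24 h, against 20.4 and 20 at 16 h with the same ligand and 25.2 on the Control array of 24 h. The rise above all Control arrays was 2.04 ± 0.22 (SE, adjusted p 9.27e-12), or 2.03 (adjusted p 2.16e-07) against the Control array of 24 h, and 4.44% of all probe sets were called higher in the first of these comparisons. Set against 16 h, a comparison chosen after the values were seen, Egr1 rose by 2.33 ± 0.27 (adjusted p 6.44e-09), where 0.284% of all probe sets were called higher. Because the arrays of 16 h were at or near the floor, the size of this rise was not measured in full. The single Cpg array of 24 h read 36.3, which is 0.53 above Control (95% confidence interval -0.05 to 1.11, adjusted p 0.164).

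Egr2, known from hindbrain and nerve development as Krox20 and in T cells for holding back activation, was bright even in unstimulated cells. Over the 8 Control arrays its lowest, median and highest values were 190, 522 and 949.5. At 1 h it measured 2628 and 2774 with Lps, 1304 and 1261 with Pic, 2756 and 2960 with Pam, 2346 and 2373 with Cpg, and 2115 and 2190 with Grd. All 10 arrays lay above the highest Control array. The rises were 2.51 with Lps, 1.44 with Pic, 2.59 with Pam, 2.32 with Cpg and 2.18 with Grd (SE 0.28 each), or 5.70-, 2.71-, 6.03-, 4.98- and 4.55-fold, with adjusted p between 1.16e-10 for Pam and 0.000239 for Pic. The rise with Pic came to 0.97 (adjusted p 0.00488) against the Control array of 1 h and to 0.79 (adjusted p 0.0166) against the Control trend, short of 2-fold in each.

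**Figure D2:**
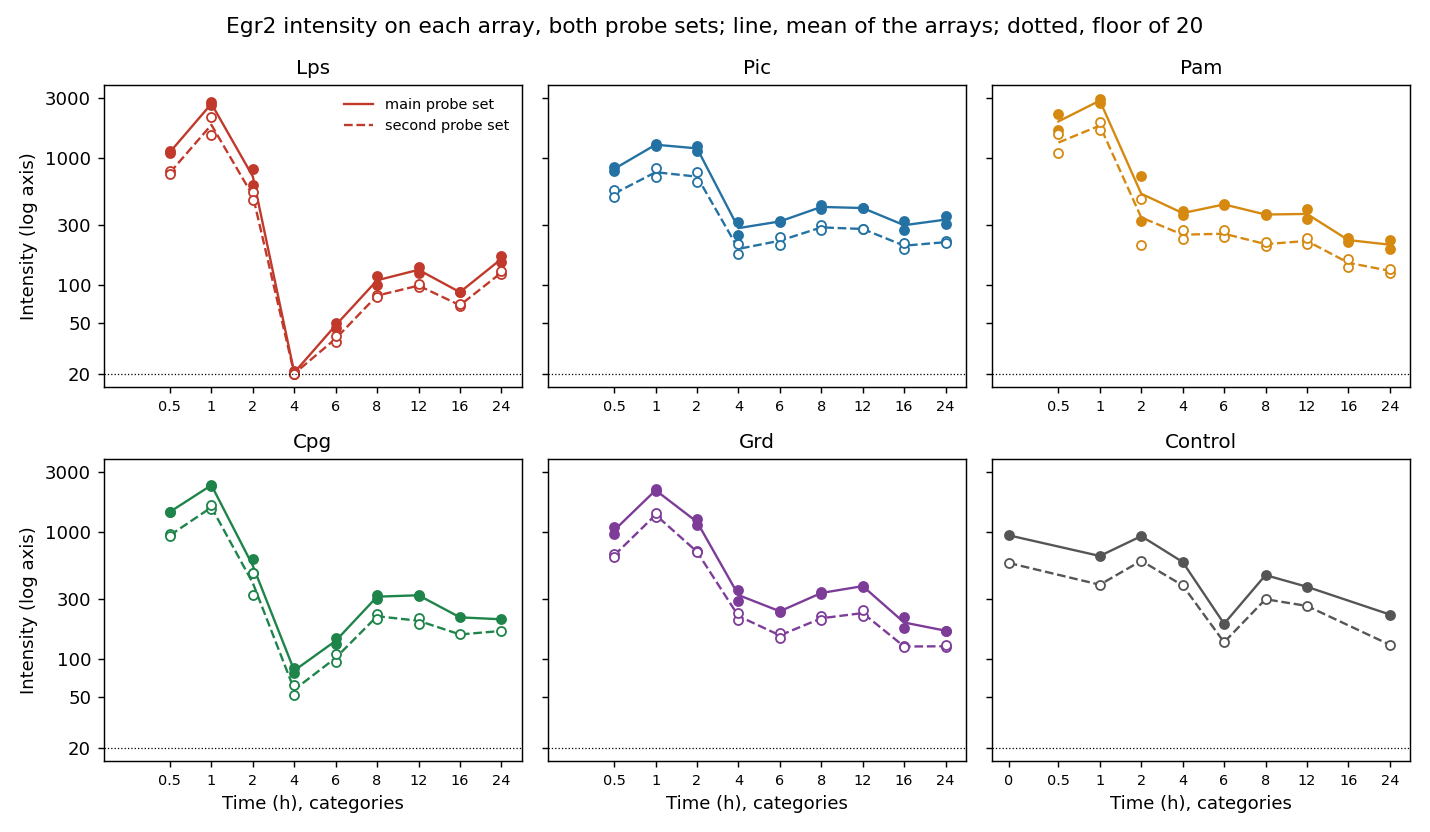
Egr2 intensity (log axis) against time in hours, spaced as categories, for each ligand and Control; filled points and solid lines are the main probe set, open points and dashed lines the second, points are arrays, lines join means and the dotted line is the floor of 20. Both probe sets peak at 1 h with all 5 ligands, reach the floor or close to it at 4 h with Lps, and read lower late than early in Control.

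At 0.5 h the Egr2 differences were 1.24 with Lps, 2.03 with Pam, 1.62 with Cpg and 1.13 with Grd, all called, and 0.80 (adjusted p 0.018) with Pic, which was not. Against the Control time trend only the rise with Pam stayed above 2-fold (1.198, adjusted p 0.00011), while the values were 0.41 with Lps, 0.78 with Cpg and 0.30 with Grd. At 2 h Egr2 measured 1136 and 1263 with Pic and 1272 and 1149 with Grd, against 817.5 and 621 with Lps, 733 and 320 with Pam, and 474.5 and 617 with Cpg. The 2 h minus 1 h difference was -1.92 with Lps, -2.56 with Pam and -2.12 with Cpg, all called lower (SE 0.36 each, adjusted p 3.4e-05, 2.08e-07 and 1.03e-05), whereas with Pic and Grd the differences were -0.10 (95% confidence interval -0.82 to 0.62) and -0.83 (-1.55 to -0.11, adjusted p 0.206) and were not called. At 2 h Egr2 was 1.34 above all Control arrays with Pic and 1.35 above them with Grd, both called, but only 0.36 (adjusted p 0.703) and 0.37 (adjusted p 0.345) above the Control array of 2 h, which read 935.

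After the pulse Egr2 dropped below the unstimulated level with Lps and Cpg. With Lps it measured 20 and 20.8 at 4 h, 50.4 and 46 at 6 h, and 118.5 and 99.8 at 8 h, and with Cpg 77.6 and 84.9 at 4 h, 133 and 146 at 6 h, and 300 and 322 at 8 h. The Control arrays of 4, 6 and 8 h read 584, 190 and 460.5. All 6 Lps arrays and 4 of the 6 Cpg arrays lay below the lowest Control array. Over that window the fall was -3.28 ± 0.19 with Lps (SE, adjusted p 1.05e-21), which is 0.103 of the Control level, and -1.63 ± 0.19 with Cpg (adjusted p 1.25e-10), which is 0.323 of it. The differences were -0.51 with Pic, -0.29 with Pam and -0.69 with Grd, none of them 2-fold. Set against Control arrays of the same times, the falls over the window were -2.94 with Lps and -1.28 with Cpg and remained past the threshold. Time by time, the matched fall with Lps was past 2-fold at 4, 6 and 8 h (-4.77, -1.96 and -2.07). With Cpg it was past 2-fold at 4 h alone (-2.83), against -0.45 at 6 h and -0.57 at 8 h. Against all Control arrays, Egr2 with Cpg was called lower at 4 and 6 h but not at 8 h (-0.60, adjusted p 0.0656).

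The lowest values with Lps were those of 4 h, when 1 of 2 arrays was at the floor, and the fitted difference of -4.47 there is limited by the floor. The second probe set was at the floor on both arrays, so its Control level was at least 15.1-fold higher. From 4 h to 8 h Egr2 climbed again, by 2.36 ± 0.36 with Lps (adjusted p 7.62e-07) and by 1.92 ± 0.36 with Cpg (adjusted p 4.68e-05), a comparison chosen after the values were seen. The value with Lps is limited by the floor at 4 h, so the size of that climb was not measured in full. In that comparison 1.01% of all probe sets were called higher with Lps and 0.782% with Cpg. With the other ligands the 8 h minus 4 h difference was 0.56 with Pic, -0.04 with Pam and 0.06 with Grd, none called.

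Between 1 h and 4 to 8 h, Egr2 fell with all 5 ligands, with 4 to 8 h minus 1 h differences of -5.79 with Lps, -1.94 with Pic, -2.88 with Pam, -3.95 with Cpg and -2.87 with Grd (SE 0.29 each). Egr1 fell in the same comparison with 4 ligands, at -6.76 with Lps, -6.80 with Pam, -6.32 with Cpg and -4.03 with Grd, where the floor limits the size, while -0.60 with Pic was not called. Of all probe sets 5.72% were called lower in this comparison with Lps, 1.97% with Pic, 2.88% with Pam, 3.71% with Cpg and 3.31% with Grd. This comparison was also chosen after the values were seen.

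At 12 to 24 h Egr2 with Lps had a lowest, median and highest value of 87.5, 132 and 169, and all 6 arrays still lay below the lowest Control array, which read 190. The medians were 337 with Pic, 230 with Pam, 266 with Cpg over 4 arrays, and 194.5 with Grd. The fall of Egr2 was -1.93 ± 0.19 with Lps (adjusted p 7.64e-13) and -1.03 ± 0.19 with Grd (adjusted p 7.49e-06). The call with Grd was lost without the Control array of 0, 1, 2 or 4 h or 1 Grd array of 16 h (-0.99 to -0.89), while Pam passed without the Control array of 6 or 24 h and Cpg without that of 6, 12 or 24 h. Differences were -0.47 with Pic, -0.87 with Pam and -0.97 with Cpg and were not called. With Lps Egr2 was nonetheless 1.35 ± 0.21 higher at 12 to 24 h than at 4 to 8 h (adjusted p 1.22e-07), a comparison in which 3.44% of all probe sets were called higher.

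Egr2 also read lower at late than at early times in cells that received no ligand, and the late comparisons depend on which Control arrays are used. The Control arrays read 949.5, 652, 935, 584, 190, 460.5, 372 and 225 at 0, 1, 2, 4, 6, 8, 12 and 24 h. A line on log2(hours + 1) had a slope of -0.46 ± 0.13 (SE, 8 arrays, adjusted p 0.0687), which did not pass the threshold, and it passed without the array of 6 h (-0.43, adjusted p 0.0317). Of all probe sets 10.4% passed with all 8 arrays. Against the Control arrays of 12 and 24 h, the late Egr2 difference was -0.99 (adjusted p 2.76e-07) with Lps, just short of 2-fold, and -0.20 (adjusted p 0.284) with Grd, -0.17 with Cpg, -0.08 with Pam and 0.33 with Pic. At 24 h alone Egr2 read 169 and 153 with Lps and 225 in Control, a difference of -0.48 (adjusted p 0.0647) against that 1 array.

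**Figure D3:**
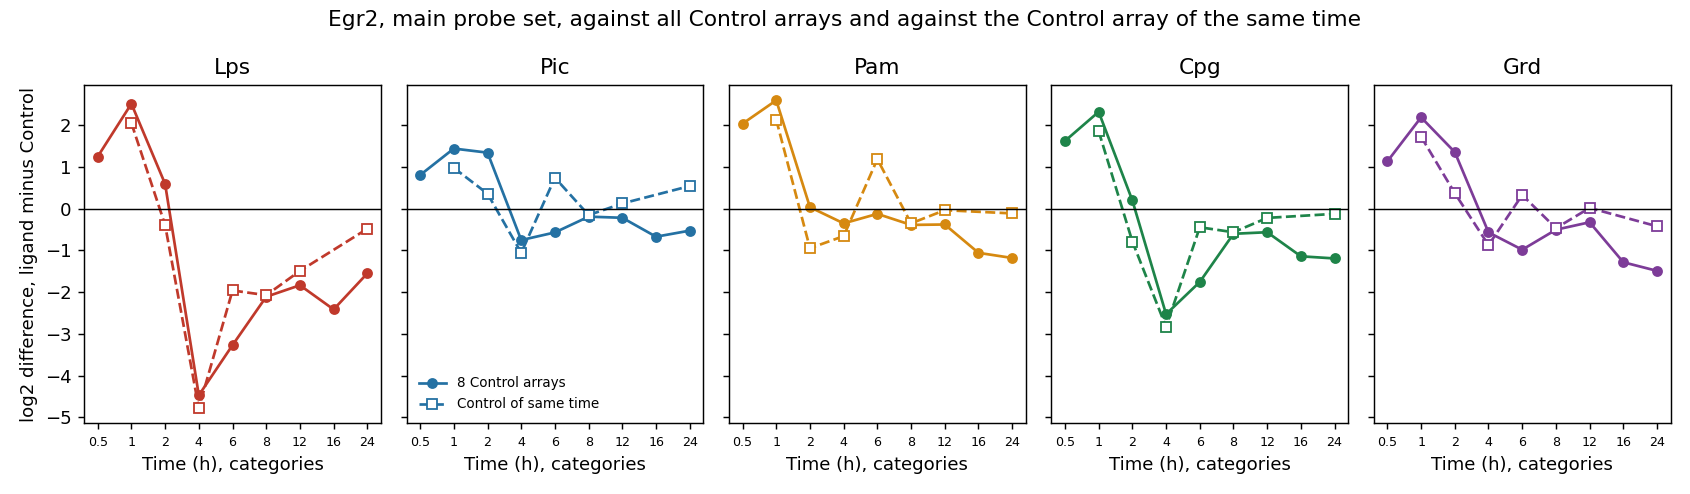
Log2 difference of Egr2, ligand minus Control, against time in hours, spaced as categories, with 1 panel for each ligand; filled points use all 8 Control arrays and open squares the 1 Control array of the same time, where there is one. With Lps both stay below 0 from 4 h on, and with Pic, Pam, Cpg and Grd the late open squares lie between -0.42 and 0.54.

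The summed intensity of neutrophil and granulocyte precursor markers also ran below the Control range at 12 to 24 h. This held on all arrays with Lps, Pam, Cpg and Grd and in part with Pic. The markers were not followed 1 by 1. Of 7 markers 6 were measured, all above the floor on every Control array save Mpo, which was at the floor on 1. S100a8 and Ngp, with Control medians of 2383 and 1030, weigh most in the sum. At 12 to 24 h the sums were 721 to 1746 with Lps, 2294 to 3511 with Pic and 1531 to 1803 with Pam. They were 994 to 2069 with Cpg and 1377 to 2437 with Grd, against 2902 to 4587 in Control. At 0.5 to 2 h the highest sums, from 4956 with Grd to 6608 with Pic, lay above that Control range. In the 4 to 8 h window the sums were 2425 to 3014 with Lps, 3896 to 5223 with Pic, 2141 to 3089 with Pam, 2678 to 3310 with Cpg and 2825 to 3423 with Grd. Their part in the Egr2 result was not tested.

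Read against all probe sets, 1 of the 3 EGR genes, Egr2, was called lower at 4 to 8 h with Lps, beside 7.72% of all probe sets, and with Cpg, beside 5.15%. None was called lower with Pic, Pam or Grd, where the shares were 2.53%, 3.66% and 3.61%. At 12 to 24 h Egr2 was called lower with Lps and Grd, beside 4.08% and 2.6% of all probe sets, and no EGR gene was with Pic (3.74%), Pam (2.7%) or Cpg (3%).

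The second Egr2 probe set gave the same calls except 1. At 1 h its differences were 2.58 with Lps, 1.35 with Pic, 2.58 with Pam, 2.38 with Cpg and 2.18 with Grd, and at 4 to 8 h they were -2.89 with Lps and -1.47 with Cpg, all called. At 12 to 24 h it was -1.66 with Lps, called, and -0.97 with Grd, just short of 2-fold. These statements cover the 15 comparisons with Control at 1 h, 4 to 8 h and 12 to 24 h. Group means of the 2 probe sets, which read the same transcripts on the same arrays, had a Pearson r of 0.997 over 46 groups.

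Ligands were then compared with each other, with no Control array in the difference itself. The standard errors still come from the fit that holds the Control arrays of all times as 1 group. Egr2 changed with time in Control, which widens its errors. For Egr2 with Pic at 1 h minus Control the SE was 0.28, and 0.215 with Control split by time. The ligand pairs were not run with Control split in that way, so an Egr2 pair that was not called is not shown to be alike. At 1 h Egr1 differed in 7 of 10 pairs. Pic minus Pam was -4.93, Pic minus Cpg was -4.45, Pic minus Grd was -2.16 and Lps minus Pic was 4.90 (SE 0.27 each, adjusted p 1.39e-07 or less). Against Grd, Egr1 was higher by 2.74 with Lps, by 2.77 with Pam and by 2.30 with Cpg. The differences among Lps, Pam and Cpg were not called, at -0.03 for Lps minus Pam (95% confidence interval -0.58 to 0.52), 0.45 for Lps minus Cpg (-0.10 to 1.00) and 0.48 for Pam minus Cpg (-0.07 to 1.03).

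For Egr2 at 1 h, 1 of 10 pairs was called with the main probe set and 3 of 10 with the second. On the main probe set Pic minus Pam was -1.15 ± 0.36 (adjusted p 0.0324), a call that was lost when any 1 of the 4 arrays was left out (adjusted p 0.0956 to 0.2). Pic minus Cpg was -0.88, Pic minus Grd was -0.75 and Lps minus Pic was 1.07 (adjusted p 0.0735), which passed with array weights (adjusted p 0.000506) and with plate column as a block (adjusted p 0.0155). On the second probe set the called pairs were Pic minus Pam at -1.22 (adjusted p 0.0191), Lps minus Pic at 1.23 (adjusted p 0.0272) and Pic minus Cpg at -1.02 (adjusted p 0.034). Among Lps, Pam, Cpg and Grd the main probe set's differences lay between -0.08 and 0.41, with confidence intervals that reach from -0.80 to 1.13. Of all probe sets, the share called in either direction at 1 h was 0.865% for Lps minus Pic, 0.145% for Lps minus Pam, 1.1% for Lps minus Cpg, 0.228% for Lps minus Grd, 1.58% for Pic minus Pam, 2.52% for Pic minus Cpg, 0.429% for Pic minus Grd, 0.478% for Pam minus Cpg, 0.602% for Pam minus Grd and 1.62% for Cpg minus Grd.

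In the 4 to 8 h window Pic stood apart for Egr1 and Lps for Egr2. Egr1 was 1.27 higher with Pic than with Pam, 1.26 higher than with Cpg and 1.27 higher than with Grd, and Lps minus Pic was -1.26 (SE 0.16 each), with Pic over Grd at least 2.49-fold. With log2(value + 16) all 4 were short of 2-fold, at -0.86 for Lps minus Pic and 0.87 for Pic minus each of the others. The other 6 pairs for Egr1, all of arrays at or near the floor, were not called. Egr2 was lower with Lps, at -2.78 against Pic, -2.99 against Pam, -1.65 against Cpg and -2.60 against Grd (SE 0.21 each), and it was 1.12 higher with Pic and 1.34 higher with Pam than with Cpg. Cpg minus Grd was -0.94 (adjusted p 0.000406), just short of 2-fold. Among Pic, Pam and Grd no Egr2 pair was called, with -0.22 (95% confidence interval -0.63 to 0.20) for Pic minus Pam, 0.18 (-0.23 to 0.60) for Pic minus Grd and 0.40 (-0.02 to 0.81) for Pam minus Grd.

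Lps minus Pam for Egr2 was thus -0.08 at 1 h (95% confidence interval -0.80 to 0.64) and -2.99 at 4 to 8 h. Over 4 to 8 h the share of all probe sets called in either direction was 3.67% for Lps minus Pic, 5.74% for Lps minus Pam, 0.422% for Lps minus Cpg, 1.97% for Lps minus Grd, 7.79% for Pic minus Pam, 3.36% for Pic minus Cpg, 3.86% for Pic minus Grd, 2.74% for Pam minus Cpg, 1.31% for Pam minus Grd and 0.374% for Cpg minus Grd.

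**Figure D4:**
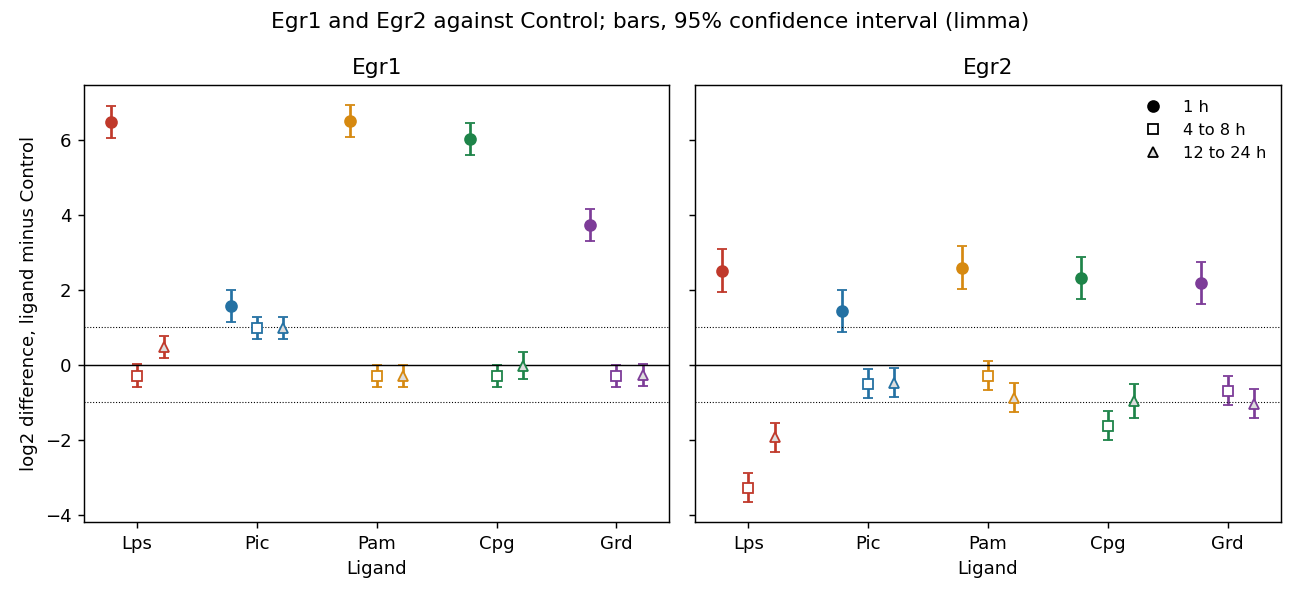
Log2 difference from Control of Egr1 and Egr2 (main probe set) by ligand at 1 h (filled circles), 4 to 8 h (open squares) and 12 to 24 h (grey triangles); bars are 95% confidence intervals of the limma fit and dotted lines mark 2-fold. At 1 h both genes lie above 0 with every ligand, Egr1 from 1.58 with Pic to 6.51 with Pam, and at 4 to 8 h Egr2 lies at -3.28 with Lps and -1.63 with Cpg.

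Egr3, which acts beside Egr2 in T cells, was hardly above the floor in any group. It ran from 20 to 26.0 with Lps, from 20.7 to 29.7 with Pic, from 20 to 26.3 with Pam, from 20 to 26.4 with Cpg and from 20 to 25.0 with Grd, against 20 to 21.8 in Control. It was called in no comparison with Control. Its largest difference was 0.40 with Pic at 0.5 h (95% confidence interval 0.24 to 0.55, adjusted p 3.16e-05), and at 4 to 8 h it was 0.30 with Pam (adjusted p 2.61e-06), 0.25 with Pic (adjusted p 3.78e-05) and 0.22 with Lps (adjusted p 0.000174). At 1 h, when Egr1 and Egr2 peaked, Egr3 was at the floor on both arrays with Pam and with Grd. These values are too close to the floor to say how Egr3 RNA changed.

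**Figure D5:**
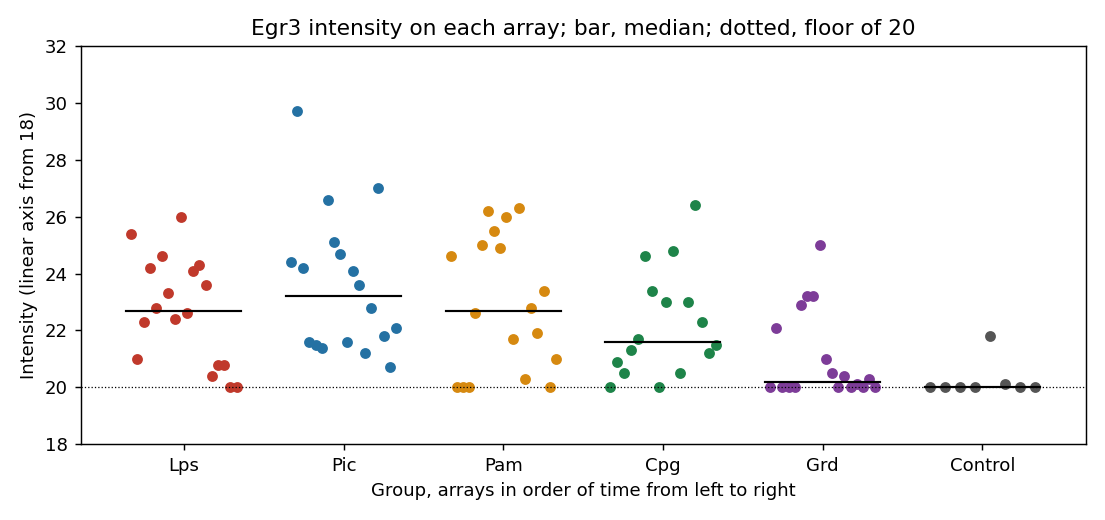
Egr3 intensity on every array (linear axis that begins at 18), arrays in order of time from left to right within each ligand and Control; bars are medians and the dotted line is the floor of 20. All values lie between 20 and 29.7, the highest on a Pic array of 0.5 h.

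The genes most like each EGR gene were taken as those with the highest Pearson r of group mean log2(value + 1) over the 46 groups, among 1121 genes of sufficient level and span for Egr1 and Egr2 and 1122 for Egr3. The groups share 1 plate and 1 normalization, and the values are a description. Egr1 was followed by Ier2 (r 0.90), Trib1 (0.87), Nr4a1 (0.82), Dusp1 (0.82) and Errfi1 (0.80). Ier2 and Nr4a1 are immediate-early genes, Dusp1 encodes a phosphatase of MAP kinases, and Errfi1 encodes an inhibitor of the EGF receptor. Ier2 averaged 1378 with Lps at 1 h, its highest group, against 155 in Control, and Dusp1 averaged 4694 with Pam at 1 h, against 441 in Control.

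Egr2 had a different company, in Gramd4 (r 0.91), Tec (0.87), Mtss1 (0.87), Hip1 (0.86) and Il6st (0.86). Tec encodes a cytoplasmic tyrosine kinase, Hip1 an endocytic adaptor and Il6st the shared signalling subunit of the receptors for interleukin 6 and its relatives. The highest group was 681 with Cpg at 1 h, against 553 in Control, for Mtss1, and 464 with Pam at 0.5 h, against 394 in Control, for Tec. Egr1 and Egr2 themselves had an r of 0.75. For Egr3 the highest r was 0.50, with Chst7, which is weak and rests on values near the floor.

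Other genes of the pathway were then read from lists, whose members are partly shared. Of 4 EGR partners, 2 could be tested, Nab1 and Nab2, which encode corepressors that bind EGR proteins. At 1 h Nab2 was lower with Pic (-1.10, adjusted p 3.36e-05), a call lost with log2(value + 16), and where 0.256% of all probe sets were called lower. It was otherwise between -0.63 and 0.45, and Nab1 between -0.20 and 0.12, with no call. Nab2 is itself a known EGR target in other systems.

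Of 12 genes on the route from ERK to SRF, 7 were tested. At 1 h Map3k8 alone was called, higher with Lps by 1.33, with Pam by 1.79, with Cpg by 2.42 and with Grd by 1.52. Of all probe sets 1.34%, 1.88%, 2.17% and 0.927% were called higher with these ligands. None of the 7 was called with Pic, where the share was 0.54%. Srf itself was between 0.26 with Lps and 0.74 with Pam and was not called. By 4 to 8 h the counts called higher were 2 with Lps, 1 with Pic, 1 with Pam, 2 with Cpg and 3 with Grd, beside 7.04%, 4.8%, 3.41%, 5.42% and 4.4% of all probe sets. The largest, each gene at its highest, were Map3k8 with Cpg (2.05) and Map2k1, which encodes an ERK kinase, with Lps (1.48). Rps6ka3, a kinase downstream of ERK, was lower with Lps (-1.01), a call lost with another offset or with arrays centred on their medians. In that comparison 7.72% of all probe sets were called lower.

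Of 11 SRF-type immediate-early genes tested, 8 were called higher at 1 h with Lps, 1 with Pic, 8 with Pam, 8 with Cpg and 5 with Grd, beside 1.34%, 0.54%, 1.88%, 2.17% and 0.927% of all probe sets. Their median differences were 2.19, 0.30, 2.23, 2.11 and 0.75 in that order of ligands, against medians of -0.03, -0.01, -0.05, -0.06 and -0.01 over all probe sets. The largest rises were those of Nr4a1 with Cpg (3.37 ± 0.15) and Ier2 with Lps (3.16 ± 0.16), and the 1 gene called with Pic was Ier3 (1.10). The 1 fall was that of Klf4 with Cpg (-1.09, adjusted p 1.8e-06), where 0.415% of all probe sets were called lower. SRF-type is only the name of the list, and the arrays do not show whether SRF acts on each member.

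Later, at 4 to 8 h, 2 members of that list, Fos and Klf4, were lower with Lps, Pam, Cpg and Grd, and none was lower with Pic. Fos, a subunit of the factor AP-1, was at -2.63 with Lps, -2.71 with Pam, -1.51 with Cpg and -2.06 with Grd. Klf4, a zinc-finger factor of monocyte differentiation, was at -2.29 with Lps, -3.56 with Pam, -3.05 with Cpg and -3.24 with Grd. Egr2 in this window was called lower with Lps and Cpg and not with Pam, where it measured 357 to 435, or with Grd. Members called higher in that window were 1 with Lps, 2 with Pic, 1 with Pam, 2 with Cpg and 1 with Grd, of 11, beside 7.04%, 4.8%, 3.41%, 5.42% and 4.4% of all probe sets. The largest, each gene at its highest, were Ier3 (1.53) and Atf3 (1.13), both with Cpg. With centred arrays 3 were called with Lps, and with log2(value + 16) 1 with Pic.

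Feedback inhibitors of ERK were also called at 1 h. Of 6 tested, 3 were called higher at 1 h with Lps, 1 with Pic, 3 with Pam, 3 with Cpg and 1 with Grd, beside 1.34%, 0.54%, 1.88%, 2.17% and 0.927% of all probe sets, and none lower. Dusp1 and Dusp2, both phosphatases of MAP kinases, gave the largest rises, Dusp2 at its highest with Cpg (4.35 ± 0.24) and Dusp1 with Pam (3.48 ± 0.15), and Dusp1 was the 1 gene called with Pic (1.28) and with Grd (2.44). In the later window Spred1, an inhibitor of the Ras to ERK step, was higher with all 5 ligands, most with Lps (2.06 ± 0.12). The counts called higher there were 2 with Lps, 1 with Pic (2 with centred arrays), 2 with Pam (1 with log2(value + 16)), 3 with Cpg and 2 with Grd (1 with log2(value + 16)), beside the same shares of all probe sets as for the SRF-type genes in that window. Dusp6, which acts on ERK, was lower with Lps (-1.12, adjusted p 5.68e-08), beside 7.72% of all probe sets. That call was lost with another offset or with arrays centred on their medians.

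Of 11 genes tested that are known as EGR targets in other systems, 5 were called higher at 1 h with Lps, 1 with Pic, 7 with Pam, 8 with Cpg and 3 with Grd, beside 1.34%, 0.54%, 1.88%, 2.17% and 0.927% of all probe sets. Their medians were 1.00, 0.26, 1.38, 1.75 and 0.66 in that order of ligands. Nab2 with Pic was the 1 fall. Tnf, the inflammatory cytokine, with Cpg (6.4 ± 0.25) and F3, which encodes tissue factor, with Pam (3.69 ± 0.23) rose most. Later the counts at 4 to 8 h were 4 with Lps, 4 with Pic, 4 with Pam, 2 with Cpg (4 with centred arrays) and 2 with Grd, all called higher, beside 7.04%, 4.8%, 3.41%, 5.42% and 4.4% of all probe sets. They were led by Tnf with Cpg (6.08 ± 0.17) and Gadd45b, a gene of the stress response, with Lps (1.79 ± 0.06). The 1 fall was that of Gadd45a with Lps (-1.55 ± 0.14), where 7.72% of all probe sets were called lower. Many of these genes also answer to NF-kB, another factor downstream of Toll-like receptors, and the arrays measure no binding of EGR proteins to them.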

How the data were processed

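Total RNA of 96 samples was hybridised to one-colour arrays on 1 plate, and the authors deposited 1 table of intensities, made with RMA per the submitters' processing notes. No version, log base or floor is given in the sources used here. The deposited intensity values are linear and end at a floor of 20, which was seen in the values. Of 18858 probe sets, 4409 at the floor on every array were left out. One model was fitted in R 4.3.3 with limma 3.58.1 (lmFit, eBayes, two-sided tests) on log2(value + 1), with 45 ligand and time groups and 1 Control group, leaving 50 residual degrees of freedom, and p-values were adjusted over the 14449 other probe sets. The script was tested on simulated data. Depth is not defined for arrays, and the number of arrays limits the precision. Probe sets were named from platform annotation, 15044 with 1 symbol, 257 with several and 3557 with none, and all 4 EGR probe sets matched RefSeq by Entrez ID. Genes were named by rule: every EGR probe set, the 5 most alike genes of each, and the largest called rises and falls of each list. Members, lists and windows were chosen with earlier results of these data known. Alternatives changed offset, filter, probe sets per gene, scaling, Control arrays, weights, replicate and plate blocks, and arrays left out.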

Additional observations from a re-analysis of the deposited data

Results flagged for a closer look

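Egr2 changed direction with time for 2 ligands, called above Control at 1 h and below it at 4 to 8 h. The change of sign is read from these comparisons with Control. The difference between the times themselves was -5.79 for Lps (4 to 8 h minus 1 h, log2 scale, adjusted p 8.98e-24) and -3.95 for Cpg (adjusted p 8.19e-17), and it was also called with Pic, Pam and Grd, where Egr2 was not called below Control in that window, so by itself it shows that the pulse ended. All 6 Lps arrays and 4 of 6 Cpg arrays of 4 to 8 h lay below the lowest Control array, after both arrays of 1 h lay above the highest one.

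Egr1 with Lps returned at 24 h, where the difference from 16 h was 2.33 (adjusted p 6.44e-09), with 101.7 and 109.7 at 24 h and 20.4 and 20 at 16 h, where the floor limits the size of the difference.

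Among the 8 Control arrays, Egr3 read 21.8 on the array of 6 h, and its gap to the next array was 0.944 of the range of the group. The other arrays lay at or within 0.1 of the floor. Chance would flag about 1 in 20 groups in this way, but that rate does not hold here. With 6 of the 8 arrays tied at the floor, a small step above it is enough for the flag.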

How the results depend on the processing

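Of 2792 checks of 135 results, 2713 kept their side of the threshold, 79 crossed it and 0 reversed a call. Differences that were not called could still change sign. Egr2 with Pic at 12 to 24 h, for example, ranged from -0.8129 to 0.3321 over the settings. With Pic, Egr1 at 4 to 8 h passed at 1.091 with arrays centred on their median, 1.046 with quantile normalization, 1.035 with a Control trend, 1.265 with matched Control times and 1.004 with a replicate block, and ranged from 0.9312 to 1.075 with 1 array left out. At 12 to 24 h it passed at 1.079, 1.031, 1.288, 1.026 and 1.024 under the same 5 settings and at 1 with array weights, and ranged from 0.9504 to 1.095. Leaving out the Control array of 0 h or 2 h took both past it, as did 1 Pic array of 8 h in the first window and 1 of 12, 16 or 24 h in the second. The lowest values of Egr1 with Pic came with log2(value + 16), at 0.678 in the first window and 0.6956 in the second. Egr2 with Grd at 12 to 24 h no longer passed with log2(value + 16) (-0.9901), a Control trend (-0.2342) or matched Control times (-0.203), nor without the Control array of 0, 1, 2 or 4 h or 1 Grd array of 16 h (range -1.22 to -0.8897). Egr2 with Pic at 1 h came to 0.7936 with the trend and 0.9747 with matched times. With matched times, Lps at 12 to 24 h gave 1.012 for Egr1, which then passed, and -0.9868 for Egr2, which did not. Array weights took Egr2 past the threshold with Grd at 4 to 8 h (-1.026) and at 12 to 24 h with Pam (-1.213) and Cpg (-1.306), and a plate column block did so for Cpg (-1.007). Left-out arrays gave -1.06 to -0.7297 for Pam, which passed without the Control array of 6 h or 24 h, and -1.153 to -0.8227 for Cpg, which passed without that of 6, 12 or 24 h. The Egr2 slope in Control passed with centred arrays (-0.45, adjusted p 0.0424) and without the array of 6 h (range -0.4883 to -0.4215). The cause was not tested. No pairing by replicate number common to all groups was seen. Deviations of same-numbered arrays correlated between -0.374 and 0.365, median 0.007, over 903 pairs of groups, and 19.2% of the pairs were over 0.1. These pairs ran across ligands as well as within them, so pairing within a ligand was not tested. The replicate block moved the number of probe sets called with Lps at 1 h to 276, against 274 without it. The floor limits every comparison with a group at or near it, such as Egr1 at 4 to 8 h with all ligands but Pic.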
